A study of Mus musculus with 8 samples.

Results

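The 6 genes described here are Cxcl1, Cxcl2, Cxcl3, Cxcl5, Ppbp and Pf4, which encode neutrophil-attracting and platelet chemokines of the CXC family. They were taken by name from the 22180 genes that the array annotation maps to a single symbol, and each of the 6 is represented by 1 probe set row. Transcript levels were measured on 8 Affymetrix arrays, 1 per mouse, with RNA of flow-sorted CD45+ CD11b+ Ly6Chi cells, a sort aimed at inflammatory monocytes and their macrophage progeny. The tumours of 4 irradiated mice had received 20 Gy and those of 4 sham mice a mock treatment, and cells were taken 1 day later. All 8 hosts were female C57BL/6 mice aged 8 weeks. Each carried under the skin a tumour grown for 14 days from cell line 152, which was derived from pancreatic tumours of KPC mice (KrasLSL-G12D/+, Trp53LSL-R172H/+, Pdx1-Cre). These alleles, in which Pdx1-Cre acts in the pancreatic lineage, belong to the implanted line and not to the sorted host cells, and all tumours came from this 1 line at a site outside the pancreas.

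Chemokines are small secreted proteins that steer leukocytes through G protein-coupled receptors. CXCL1, CXCL2, CXCL3 and CXCL5 attract neutrophils through the receptor CXCR2, and in monocytes and macrophages their genes are known as rapid targets of the transcription factor NF-kB after signals from Toll-like receptors, interleukin-1 or tumour necrosis factor. PPBP, also called CXCL7, is stored in platelet granules and yields a CXCR2 ligand when it is cleaved. PF4, also called CXCL4, is likewise a platelet granule protein, but it lacks the short sequence that CXCR2 ligands carry ahead of their paired cysteines. Both platelet chemokine genes are also known to be transcribed in some macrophages.

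The 6 genes lie side by side on mouse chromosome 5 in the RefSeq annotation of GRCm38.p6, in the order Cxcl5, Ppbp, Pf4, Cxcl3, Cxcl15, Cxcl1 and Cxcl2, with Cxcl15 as the only other gene among them. The promoter windows of Cxcl1, Cxcl2, Cxcl3, Ppbp and Pf4 from RefSeq, 300 bases each in GRCm38.p6, are shown to set the neutrophil attractants beside the platelet pair. Each runs 5′ to 3′ from 250 bases before the annotated start to 50 after it. Capitals mark the 2 runs of at least 10 bases that Cxcl1, Cxcl2 and Cxcl3 share, GGGAATTTCCC and CTCCAGACTCCAG, and the TATA box letters TATAAA, all searched on both strands.
Cxcl1 promoter, chr5:90890995-90891294, plus strand: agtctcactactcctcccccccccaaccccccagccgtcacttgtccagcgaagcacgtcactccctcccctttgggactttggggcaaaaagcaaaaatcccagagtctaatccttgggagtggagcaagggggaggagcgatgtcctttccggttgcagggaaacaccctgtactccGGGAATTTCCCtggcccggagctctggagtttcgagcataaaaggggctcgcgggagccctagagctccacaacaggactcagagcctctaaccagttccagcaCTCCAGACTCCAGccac
Cxcl2 promoter, chr5:90903649-90903948, plus strand: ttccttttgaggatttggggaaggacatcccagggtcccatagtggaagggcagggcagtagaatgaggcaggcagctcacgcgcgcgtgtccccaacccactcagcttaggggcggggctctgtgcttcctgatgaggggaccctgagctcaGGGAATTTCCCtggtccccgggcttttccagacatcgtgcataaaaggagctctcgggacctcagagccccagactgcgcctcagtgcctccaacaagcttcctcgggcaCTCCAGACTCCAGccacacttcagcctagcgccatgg
Cxcl3 promoter, chr5:90785851-90786150, plus strand: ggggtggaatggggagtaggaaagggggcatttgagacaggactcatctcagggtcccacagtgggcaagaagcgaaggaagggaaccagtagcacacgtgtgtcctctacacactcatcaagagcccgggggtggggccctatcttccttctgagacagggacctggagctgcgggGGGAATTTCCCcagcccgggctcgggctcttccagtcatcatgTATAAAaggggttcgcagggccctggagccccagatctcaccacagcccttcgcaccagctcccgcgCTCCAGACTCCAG
Ppbp promoter, chr5:90768268-90768567, plus strand: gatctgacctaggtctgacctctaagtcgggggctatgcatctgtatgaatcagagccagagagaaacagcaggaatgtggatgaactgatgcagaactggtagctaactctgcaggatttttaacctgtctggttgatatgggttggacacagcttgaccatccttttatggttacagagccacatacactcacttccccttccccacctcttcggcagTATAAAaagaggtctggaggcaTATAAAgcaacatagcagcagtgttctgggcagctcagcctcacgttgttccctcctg
Pf4 promoter, chr5:90772185-90772484, plus strand: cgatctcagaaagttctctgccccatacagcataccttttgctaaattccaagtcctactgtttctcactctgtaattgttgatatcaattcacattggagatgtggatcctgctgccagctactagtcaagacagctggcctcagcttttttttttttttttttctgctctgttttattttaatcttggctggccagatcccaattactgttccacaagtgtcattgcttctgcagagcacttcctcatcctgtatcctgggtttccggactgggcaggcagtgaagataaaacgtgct
The shared run GGGAATTTCCC, which holds the consensus of an NF-kB site, began 71 bases before the start in Cxcl1, 97 in Cxcl2 and 73 in Cxcl3. The windows of Ppbp and Pf4 did not hold it, and of all 32851 promoter windows of this length 14 did (0.0426%). The run CTCCAGACTCCAG began 33 bases after the annotated start in Cxcl1, 13 in Cxcl2 and 37 in Cxcl3, and 4 windows in all held it (0.0122%). The TATA box letters were found 30 bases before the start in both Cxcl3 and Ppbp, with another copy 8 bases before it in Ppbp, and in 13.6% of all windows. Only these exact letters were marked. The windows of Cxcl1 and Cxcl2 hold the near match cataaa before the start, and that of Pf4 holds gataaa after it. These matches describe letters only, and the search followed a first reading of the sequences. A first search had used single sites for NF-kB, TATA, a TATA variant, GATA and ETS factors. The shared runs then took the place of the NF-kB site, and the results for the TATA variant, GATA and ETS sites are not shown.

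The arrays were close to one another as wholes, with medians between 4.68 and 4.73 on the log2 scale and pairwise correlations between 0.976 and 0.988. Of the sort markers, Ptprc, which encodes CD45, averaged 11.62 ± 0.09 in irradiated mice and 11.66 ± 0.05 in sham mice (SD, n = 4 each). For Itgam, the CD11b gene, the averages were 11.12 ± 0.12 in irradiated mice and 10.94 ± 0.18 in sham mice. Ly6c2, which encodes the Ly6C antigen, averaged 11.76 ± 0.71 in irradiated mice and 11.55 ± 0.42 in sham mice, and the related gene Ly6c1 lay under 4.70, the median of all probe set rows, on all 8 arrays. Sham mice 2 and 3 stood apart in the neutrophil granule gene Camp, at 8.02 and 10.10 against 3.08 to 3.69 on the other 6 arrays.

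The comparison asked whether these chemokine genes differed in tumour monocytes and macrophages 1 day after irradiation of the tumour. None of the 6 passed the threshold in limma with Benjamini-Hochberg adjustment over all 22180 genes (adjusted p from 0.902 to 0.998), and the irradiated and sham ranges overlapped for every one of them. Over all genes 0% passed the adjusted threshold, 6.07% had an unadjusted p under 0.05 and 3.68% had groups that did not overlap, against 0 of the 6 members by each of these measures. The median difference, irradiated minus sham, was 0.07 on the log2 scale over the 6 members and -0.03 over all genes. Without sham mice 2 and 3 together, the 6 differences ran from -0.49 for Cxcl1 to 0.13 for Cxcl5 and again none passed. The 6 genes varied widely among mice of the same group. Their within-group SDs ran from 0.40 to 1.34, where the median gene had 0.19, and each exceeded that of at least 93.4% of all genes. As these are bulk samples, fewer cells of a type and less RNA per cell cannot be told apart in any of the values that follow.

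Cxcl2, which encodes a main neutrophil attractant made by activated monocytes, stood at 12.06, 12.52, 12.62 and 12.35 in irradiated mice 1 to 4, against 12.57, 11.98, 11.59 and 12.69 in sham mice 1 to 4. All lay far above 4.70, the median of all rows, and the lowest were in sham mice 3 and 2. The difference was 0.18 ± 0.23 (SE; 95% interval -0.34 to 0.70), a 1.13-fold ratio with an interval from 0.788 to 1.62 (limma adjusted p = 0.923; two-sided exact permutation p = 0.571). Leaving out sham mouse 3 turned it to -0.03, and leaving out sham mouse 4 gave 0.34.

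Cxcl3, the gene of a close relative with the same receptor, stood at 11.16, 11.65, 11.86 and 11.17 in irradiated mice 1 to 4, against 11.74, 10.85, 10.92 and 11.80 in sham mice 1 to 4. In each group a pair of mice was high and a pair low: irradiated mice 2 and 3 and sham mice 1 and 4 lay between 11.65 and 11.86, and the other 4 between 10.85 and 11.17. Over all genes, deviations from the group means also correlated positively between irradiated and sham mice within each of these sets and negatively across them. The Cxcl3 difference of 0.13 ± 0.25 (SE; 95% interval -0.43 to 0.69) corresponded to a 1.10-fold ratio, with an interval from 0.743 to 1.62 (limma adjusted p = 0.948; two-sided exact permutation p = 0.6). Leaving out sham mouse 2 turned it to -0.03, leaving out sham mouse 3 or irradiated mouse 3 gave 0.00, and leaving out sham mouse 4 gave 0.29.

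For Cxcl1, whose product is the mouse chemokine KC, the levels were 5.93, 7.84, 7.59 and 7.10 in irradiated mice 1 to 4, against 6.90, 7.02, 6.18 and 8.30 in sham mice 1 to 4. The lowest value of all was in irradiated mouse 1 and the highest in sham mouse 4, so the spread within either group covered nearly the whole range of 2.37, a 5.17-fold span. The means were 7.11 ± 0.85 in irradiated mice and 7.10 ± 0.88 in sham mice (SD, n = 4 each), a difference of 0.01 ± 0.48 (SE; 95% interval -1.05 to 1.07; limma adjusted p = 0.998; two-sided exact permutation p = 1). The interval allows a ratio from 0.484 to 2.11. Leaving out single arrays moved the difference to -0.29 without sham mouse 3, -0.23 without irradiated mouse 2, -0.14 without irradiated mouse 3, -0.05 without sham mouse 1 and -0.01 without sham mouse 2. Without irradiated mouse 1 or sham mouse 4 it was 0.41.

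Cxcl5, a neutrophil attractant better known from epithelial cells and platelets, gave a dim signal, close to 4.70, the median of all rows. It stood at 5.54, 4.72, 5.40 and 5.51 in irradiated mice 1 to 4, against 4.48, 5.43, 5.74 and 5.83 in sham mice 1 to 4. The low arrays were irradiated mouse 2 and sham mouse 1, which were among the high arrays for Cxcl3. Its difference was -0.08 ± 0.29 (SE; 95% interval -0.73 to 0.57; ratio 0.946, interval 0.603 to 1.48; limma adjusted p = 0.973; two-sided exact permutation p = 0.771). Leaving out sham mouse 1 gave -0.38, and the sign turned without irradiated mouse 2 (0.11), sham mouse 3 (0.04) or sham mouse 4 (0.07). Whether signal was above background was not tested.

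Ppbp had the widest spread of the 6. Its levels were 7.95, 8.02, 9.16 and 5.93 in irradiated mice 1 to 4, against 7.59, 7.30, 5.14 and 8.21 in sham mice 1 to 4. In each group a single mouse lay well under the other 3, irradiated mouse 4 and sham mouse 3, and irradiated mouse 3 was the highest. From lowest to highest the 8 arrays spanned 4.02 on the log2 scale, a 16.2-fold range, and 99.8% of all genes had a smaller within-group SD than its 1.34. The means were 7.77 ± 1.34 in irradiated mice and 7.06 ± 1.34 in sham mice (SD, n = 4 each). The difference of 0.70 ± 0.73 (SE; 95% interval -0.93 to 2.33) corresponded to a 1.63-fold ratio with an interval from 0.526 to 5.03 (limma adjusted p = 0.902; two-sided exact permutation p = 0.457). Single arrays moved it widely, to 0.06 without sham mouse 3, 0.24 without irradiated mouse 3, 1.09 without sham mouse 4 and 1.31 without irradiated mouse 4.

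Pf4 ranked the mice much as Ppbp did, at 9.73, 10.22, 10.83 and 8.95 in irradiated mice 1 to 4, against 10.20, 9.82, 9.26 and 10.62 in sham mice 1 to 4. Irradiated mouse 4 and sham mouse 3 were again the lowest of their groups, and irradiated mouse 3 and sham mouse 4 the highest. The difference was -0.04 ± 0.39 (SE; 95% interval -0.90 to 0.82; ratio 0.970, interval 0.534 to 1.76; limma adjusted p = 0.991; two-sided exact permutation p = 0.943). It lay between -0.34 without irradiated mouse 3 and 0.28 without irradiated mouse 4, and its sign turned also without irradiated mouse 1 (0.02), sham mouse 1 (0.03) or sham mouse 4 (0.17).

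**Figure D1:**
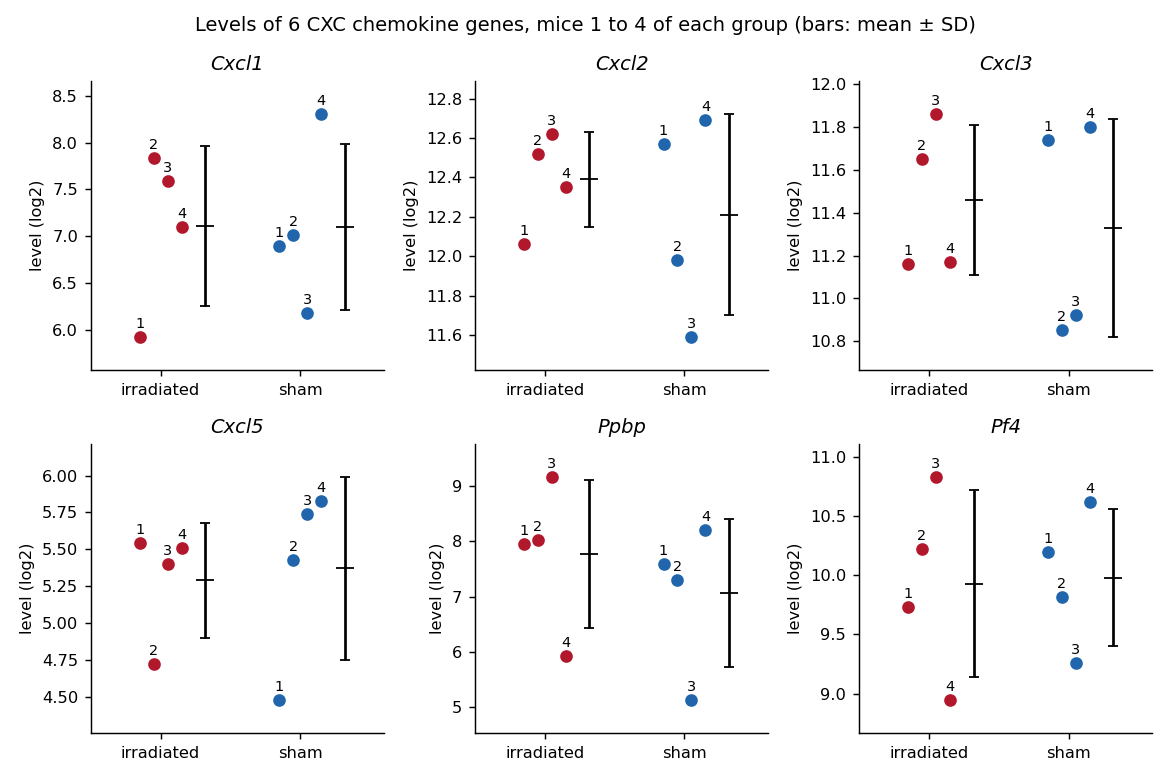
Log2 level (vertical axes, scaled per gene) of the 6 chemokine genes in irradiated mice (red, left) and sham mice (blue, right). Each point is 1 mouse, numbered 1 to 4 within its group, and the black bars give the group mean ± SD. The groups overlap for every gene, and Ppbp runs from 5.14 in sham mouse 3 to 9.16 in irradiated mouse 3.

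**Figure D2:**
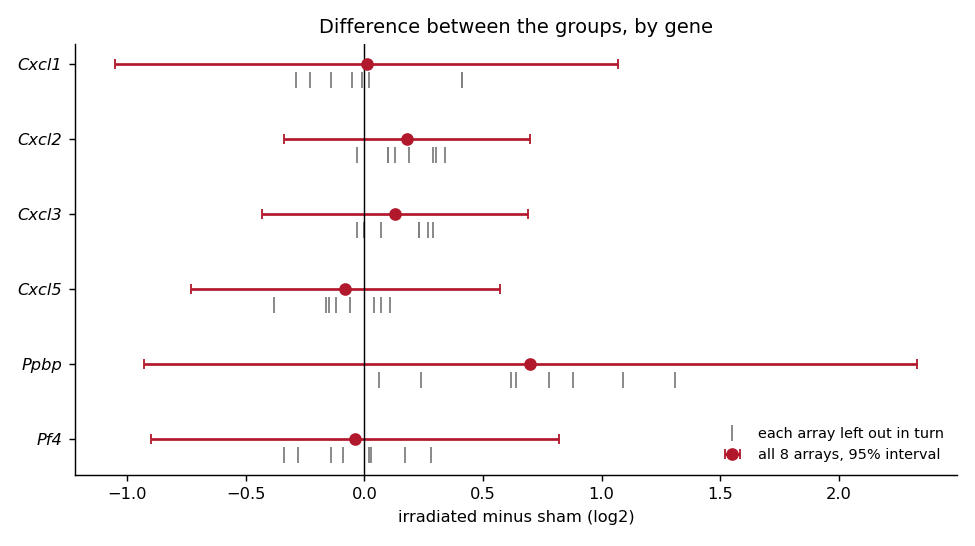
Difference between the group means on the log2 scale (horizontal axis, irradiated minus sham) for each gene. Red points and bars give the limma estimate from all 8 arrays with its 95% interval, and grey ticks under them the estimate with each array left out in turn. Every interval includes 0, and the interval is widest for Ppbp (-0.93 to 2.33).

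Across the 8 mice all members but Cxcl5 tended to vary together, and the threshold singled out 2 pairs. Of 15 pairs of members compared, the correlation passed the threshold after Benjamini-Hochberg adjustment for Cxcl2 with Cxcl3 and for Ppbp with Pf4. For Cxcl2 and Cxcl3, Pearson's r was 0.91 (two-sided exact permutation p = 0.00164, adjusted p = 0.0219) and Spearman's rho 0.95 (adjusted exact permutation p = 0.0171). Without sham mice 2 and 3, the arrays farthest from the median of Cxcl2, r was 0.91, and for deviations from the group means it was 0.90 and did not pass (adjusted exact permutation p = 0.0938). Since Cxcl3 lay in a high and a low set of 4 mice, this r includes the gap between them. For Ppbp and Pf4, r was 0.90 (two-sided exact permutation p = 0.00293, adjusted p = 0.0219) and rho 0.90 (adjusted exact permutation p = 0.0342). Without irradiated mouse 4 and sham mouse 3, the arrays lowest in Ppbp, their r was 0.80 and no longer passed with 6 arrays (adjusted exact permutation p = 0.183; unadjusted 0.0431). For deviations from the group means it was 0.95 (adjusted exact permutation p = 0.026). Leaving out single arrays kept r between 0.89 and 0.95 for Cxcl2 and Cxcl3 and between 0.85 and 0.94 for Ppbp and Pf4. Close relatives such as Cxcl1, Cxcl2 and Cxcl3 may share array probes in part, and cross-hybridisation was not tested.

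The remaining 13 pairs did not pass, but every pair without Cxcl5 had a positive r. Cxcl2 gave r = 0.71 with Ppbp and 0.69 with Pf4 (rho 0.81 and 0.79). Cxcl3 with Ppbp gave r = 0.72 and rho = 0.79. Cxcl1 gave r = 0.69 with Cxcl3, 0.63 with Pf4 and 0.51 with Ppbp. Cxcl1 correlated with Cxcl2 at r = 0.78 and rho = 0.71 (adjusted exact permutation p = 0.081 and 0.123), and r was 0.80 without irradiated mouse 1 and sham mouse 4. Cxcl3 with Pf4 gave r = 0.81 and rho = 0.76 (adjusted exact permutation p = 0.081 and 0.0919), and r was 0.91 without sham mice 2 and 3 (adjusted exact permutation p = 0.0417). Cxcl5 gave r between -0.40 and -0.10 and rho between -0.29 and -0.05 against the other 5 members (adjusted exact permutation p from 0.446 to 0.808 for r), and r between -0.44 and 0.00 with the 2 arrays left out.

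**Figure D3:**
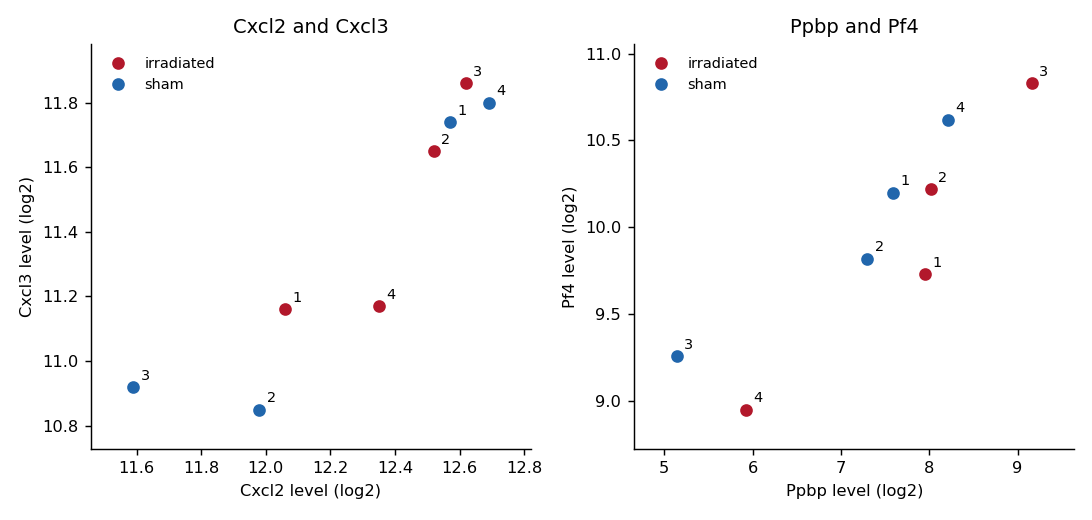
Log2 levels of Cxcl2 (horizontal) and Cxcl3 (vertical) in the left panel, and of Ppbp (horizontal) and Pf4 (vertical) in the right panel, with 1 point per mouse (red irradiated, blue sham, numbered within the group). In both panels irradiated and sham mice are mixed along 1 rising line, with r = 0.91 on the left and 0.90 on the right over 8 arrays.

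The genes whose levels followed each member best were taken from 11214 genes with a mean at or above the median of all rows, after predicted genes, clone names, small RNAs and antigen receptor segments were left out, by Pearson's r over the 8 arrays. With so few arrays high values are common: between 15 genes for Cxcl5 and 110 for Cxcl3 had r above 0.9. Cxcl2 was followed by Il1a, the interleukin-1 alpha gene (0.980), Rabgef1, which encodes an exchange factor for a Rab GTPase (0.979), and the chloride channel gene Best1 (0.972). Il1a stood at 11.11, 11.56, 11.66 and 11.32 in irradiated mice 1 to 4, against 11.56, 11.13, 10.69 and 11.87 in sham mice 1 to 4, and like Cxcl2 it was highest in sham mouse 4 and lowest in sham mouse 3. Cxcl3 was followed by the coagulation factor VII gene F7 (0.996), the proteoglycan gene Spock1 (0.976) and the gelatinase gene Mmp9 (0.976). The nearest to Cxcl1 were Pramel12 (0.991), Prdm1, which encodes the repressor Blimp-1 (0.961), and the tumour necrosis factor-induced gene Tnfaip2 (0.960). Ppbp was followed by lysosomal protease genes, Dpp7 (0.976), the cathepsin B gene Ctsb (0.974) and the cathepsin D gene Ctsd (0.967). Nearest to Pf4 were Tnfrsf9, which encodes the costimulatory receptor 4-1BB (0.973), the complement gene C1qb (0.971) and the legumain gene Lgmn (0.969). For Cxcl5 they were the glutathione synthesis gene Gclc (0.952), the methionine salvage gene Apip (0.945) and Smg8, which takes part in decay of faulty mRNA (0.942).

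No receptor gene of these chemokines passed the adjusted threshold either, and all 4 that were measured had a lower mean in irradiated mice. The unadjusted p was under 0.05 for 1 receptor gene, Ackr1, and 4.03% of all genes were lower at that level. Cxcr2, the neutrophil receptor for 5 of the 6 products, stood at 6.32, 9.05, 10.04 and 6.69 in irradiated mice 1 to 4, against 9.72, 6.95, 7.40 and 9.35 in sham mice 1 to 4. It was high in the same 4 mice that were high in Cxcl3, irradiated mice 2 and 3 and sham mice 1 and 4. Its difference was -0.33 ± 0.88 (SE; limma adjusted p = 0.965). Cxcr1, a second neutrophil chemokine receptor, averaged 5.00 ± 0.55 in irradiated mice and 5.15 ± 0.56 in sham mice (SD, n = 4 each). Cxcr3, a lymphocyte receptor linked to PF4 in humans, averaged 5.73 ± 0.25 in irradiated mice and 6.15 ± 0.51 in sham mice. Ackr1, which encodes the chemokine-binding Duffy antigen, differed by -0.36 ± 0.12 (SE; limma adjusted p = 0.819) and lay under the median of all rows on all 8 arrays.

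Among the inducers and regulators of these genes, 10 of the 21 measured were higher in irradiated mice and 11 lower, with a median difference of 0.00 on the log2 scale and 0 at an unadjusted p under 0.05. The interleukin-1 beta gene Il1b averaged 12.57 ± 0.06 in irradiated mice and 12.58 ± 0.13 in sham mice (SD, n = 4 each). Tnf, which encodes tumour necrosis factor, stood at 9.41, 10.61, 11.10 and 10.73 in irradiated mice 1 to 4, against 10.47, 9.53, 9.18 and 10.93 in sham mice 1 to 4. Its lowest arrays, irradiated mouse 1 and sham mice 2 and 3, were also the lowest for Cxcl2. The smallest p of the list belonged to Nfkbia, which encodes the NF-kB inhibitor IkB-alpha (0.26 ± 0.15, SE; two-sided exact permutation p = 0.171). The adaptor gene Traf3ip2 differed by -0.17 ± 0.12 (SE) and the lipopolysaccharide receptor gene Tlr4 by 0.19 ± 0.18. Csf3, the gene of the neutrophil growth factor G-CSF, lay under the median of all rows on all 8 arrays.

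Of the other 9 CXC chemokine genes, 5 were higher and 4 lower in irradiated mice, with a median difference of 0.13. At an unadjusted p under 0.05, 3 were higher, where 2.05% of all genes were, and 0 were lower. These 3 were Cxcl10, an interferon-induced T cell attractant (0.66 ± 0.26, SE), Cxcl17, a mucosal chemokine (0.48 ± 0.16), and Cxcl15, known from lung epithelium (0.50 ± 0.16), which lay under the median of all rows on all 8 arrays. Each had a limma adjusted p of 0.819. Cxcl15 lies inside the cluster of the 6 members. Cxcl12, a stromal chemokine, differed by -0.36 ± 0.24.

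Markers of other cells, among them cells that carry or are attracted by these chemokines, varied between mice. Their part in the members' spread was not tested. The platelet genes differed in level. Gp9, a subunit of the von Willebrand factor receptor, averaged 4.78 ± 0.19 in irradiated mice and 4.66 ± 0.23 in sham mice (SD, n = 4 each), and Itga2b, the platelet integrin gene, 4.63 ± 0.22 in irradiated mice and 4.76 ± 0.18 in sham mice. The mean of the 16 measured platelet markers other than Ppbp and Pf4 lay between 4.79 and 4.97 in irradiated mice and between 4.79 and 4.99 in sham mice, with 7 of them under the median of all rows. The list's genes were 8 higher and 8 lower in irradiated mice, with a median of -0.02 and 0 at an unadjusted p under 0.05. P2ry12, the platelet ADP receptor gene, lay between 7.84 and 8.52 in irradiated mice and between 8.04 and 8.57 in sham mice. Clec1b, which encodes the receptor CLEC-2, stood at 4.24, 5.16, 6.15 and 5.03 in irradiated mice 1 to 4, against 4.93, 5.15, 5.24 and 5.70 in sham mice 1 to 4, highest in the 2 mice where Pf4 was highest. Clec1b was lowest in irradiated mouse 1 and sham mouse 1, which were not the mice lowest in Pf4. Gp9 and P2ry12 were not highest in irradiated mouse 3, where Pf4 was. Tubb1 (4.03) and Alox12 (4.21) were highest in that mouse, and both lay under the median of all rows on all 8 arrays. Among sham mice, neither of them was highest in sham mouse 4, where Pf4 was. P2ry12 and Clec1b were chosen after their values were seen. Those with the smallest p were Itgb3 (-0.17 ± 0.11, SE), Treml1 (-0.23 ± 0.15), Alox12 (0.12 ± 0.12) and Tubb1 (0.19 ± 0.20).

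The mean of 19 markers of resident-type macrophages was 7.84, 8.04, 8.46 and 7.58 in irradiated mice 1 to 4, against 8.04, 7.68, 7.58 and 8.25 in sham mice 1 to 4. It was highest in irradiated mouse 3 and sham mouse 4 and lowest in irradiated mouse 4 and sham mouse 3, the same mice as for Pf4. Of these 19 genes 10 were higher and 9 lower in irradiated mice, with a median of 0.01. At an unadjusted p under 0.05, the adhesion molecule gene Vcam1 was higher (0.80 ± 0.28, SE) and the reductase gene Cbr2 lower (-0.45 ± 0.19), where 2.05% of all genes were higher and 4.03% lower. The mannose receptor gene Mrc1 averaged 9.79 ± 0.35 in irradiated mice and 9.96 ± 0.31 in sham mice, and Lyve1, a marker of perivascular macrophages, 5.26 ± 0.27 in irradiated mice and 5.14 ± 0.45 in sham mice (SD, n = 4 each). Ly6c2 was lowest in irradiated mouse 3 (10.77) and sham mouse 4 (11.03), where Pf4 was highest. It was highest in irradiated mouse 1 (12.45) and sham mouse 2 (11.98), which were not the mice lowest in Pf4. Of the measured monocyte markers, all but Cd14 were lowest among irradiated mice in mouse 3. Only Ly6c2 and Ccr2 were lowest among sham mice in sham mouse 4. Cd14 was the highest of its group in irradiated mouse 3 (12.09) and sham mouse 4 (12.38).

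T and NK cell markers, 13 genes measured, had a mean of 7.03, 5.72, 5.66 and 7.00 in irradiated mice 1 to 4, against 5.76, 7.99, 8.17 and 6.23 in sham mice 1 to 4. The 4 mice with the highest values, irradiated mice 1 and 4 and sham mice 2 and 3, were the 4 with the lowest Cxcl3. Of the 13 genes 12 were lower in irradiated mice, with a median of -0.81. At an unadjusted p under 0.05, 2 were lower, Il7r, the interleukin-7 receptor gene, and Klrd1, an NK cell receptor gene. The groups did not overlap for Il7r. Over all genes 12812 of 22180 were lower, 4.03% were lower at that level and 3.68% had groups that did not overlap. Il7r did not follow the mean of its list. Among irradiated mice it was lowest in mice 1 and 4 (7.64 and 8.33), where that mean was highest. Neutrophil markers, 20 genes with Cxcr2 among them, had a mean of 6.07, 6.83, 7.38 and 6.07 in irradiated mice 1 to 4, against 7.19, 6.91, 7.84 and 6.99 in sham mice 1 to 4. Of the 20, 16 were lower in irradiated mice with a median of -0.49, and 2 of these, the protease gene Prtn3 (-0.44 ± 0.15, SE) and the ficolin gene Fcnb (-0.43 ± 0.17), at an unadjusted p under 0.05. The shares over all genes were again 12812 of 22180 lower and 4.03% lower at that level. The groups did not overlap for Fcnb either, which lay under the median of all rows on 7 of the 8 arrays. Genes of this list followed different patterns, and Mmp9, Hdc and Stfa2l1 are named after their values were seen. Camp and Ngp were highest in sham mice 2 and 3, the mice lowest in Cxcl2. The gelatinase gene Mmp9, the histidine decarboxylase gene Hdc and Stfa2l1, a stefin family gene, had their 4 highest levels in irradiated mice 2 and 3 and sham mice 1 and 4, the mice high in Cxcl3; Hdc stood at 6.90, 8.78, 9.63 and 6.83 in irradiated mice 1 to 4, against 9.18, 6.88, 6.86 and 9.17 in sham mice 1 to 4. Ly6g, the defining neutrophil surface marker, averaged 4.44 ± 0.86 in irradiated mice and 4.79 ± 0.37 in sham mice (SD, n = 4 each). It lay under the median of all rows on 4 of the 8 arrays. S100a8 averaged 11.05 ± 1.26 in irradiated mice and 11.91 ± 0.39 in sham mice. Retnlg, another mature neutrophil gene, averaged 6.34 ± 1.47 in irradiated mice and 7.24 ± 0.47 in sham mice (SD, n = 4 each). Monocyte markers, 9 genes measured, had a mean from 10.46 to 11.25 in irradiated mice and from 10.79 to 11.19 in sham mice, B cell markers, 5 genes, from 4.78 to 5.63 in irradiated mice and from 5.08 to 6.18 in sham mice, and epithelial, fibroblast and endothelial markers, 15 genes, from 5.98 to 6.95 in irradiated mice and from 5.73 to 7.04 in sham mice.

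**Figure D4:**
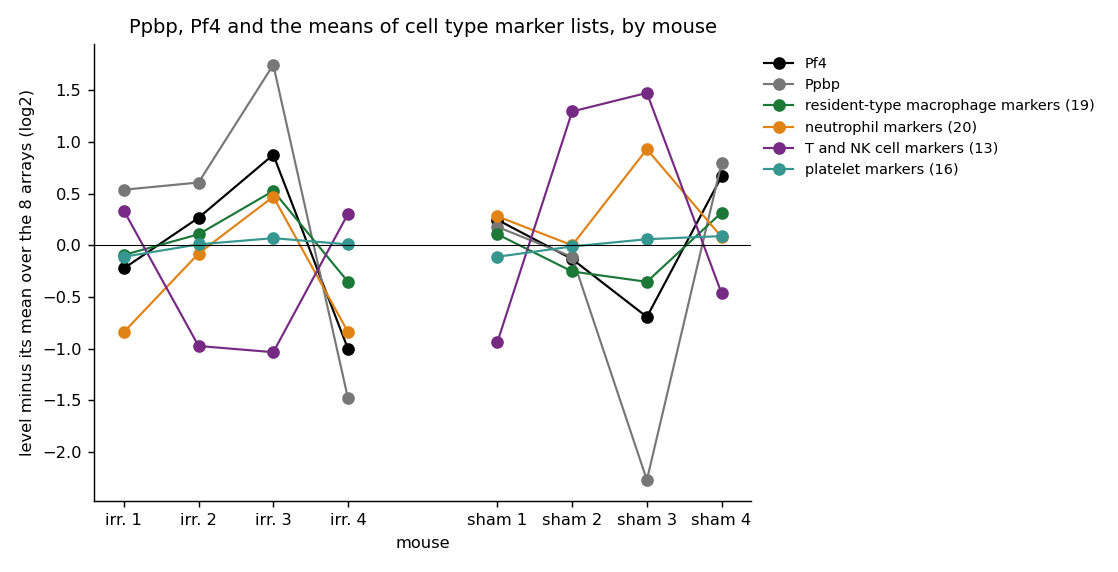
Ppbp, Pf4 and the mean of 4 cell type marker lists in each mouse, as the log2 level minus its own mean over the 8 arrays (vertical axis; irradiated mice on the left, sham mice on the right; number of genes in brackets). Ppbp, Pf4 and the macrophage list are lowest in irradiated mouse 4 and sham mouse 3; a list mean averages many genes, some of them dim, so its spread cannot be set against that of a single gene.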

How the data were processed

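Per the submitters' processing notes, the authors made the deposited log2 values with RMA and Partek; the scale was inferred from the values, and no version, setting or scan batch is given in the sources used here. The labels' protocols state that 25 ng of RNA per mouse went through ribo-SPIA amplification. Of 34365 probe set rows, 23521 had 1 gene symbol, 1814 several and 9030 none. The brightest row stood for a gene with several, which left 22180 genes; 21994 were matched to RefSeq for names.

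The fit used limma 3.58.1 (R 4.3.3; lmFit and eBayes, two-sided) over all genes, Benjamini-Hochberg at 0.05, with no filter on dim genes. Exact permutations used the 70 assignments of 8 arrays (smallest possible p 0.0286); pair correlations used all pairings. The fit was also run on simulated data with independent noise for each gene, which lacked the split of mice seen here. No result for the members rests on that run. Members, lists and tests were chosen with earlier results of these data known. Named genes are the members, receptors, sort markers, the 4 genes of each list with the smallest p and fixed defining markers. To these come 3 genes per member by correlation. Not all that this rule allows are printed. The B and stromal lists are given by their means alone, and the monocyte list by its means, Ly6c2, Ccr2 and Cd14. Cd14 is named after its values were seen. Alternatives were quantile normalization, centring on array medians, removal of dim genes, averaging of a gene's rows, a trended robust variance, array weights, a block for mouse number and leaving out each array; leaving out sham mice 2 and 3 together was added after seeing the data. Array number limits the precision.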

Additional observations from a re-analysis of the deposited data

Results flagged for a closer look

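A set of 61 genes was checked, among them the 6 members and their nearest genes, but not every gene named in the text. Each was checked in both groups for a mouse set apart from the other 3 by more of the group's range than Dixon's 95% critical value allows (chance marks about 1 group in 20). In 122 such checks 3 mice were marked, and none of them concerned one of the 6 chemokine genes. Tlr4 stood at 8.64 in sham mouse 3, against 9.38 to 9.49 in the other sham mice. Gp9 stood at 4.32 in sham mouse 3, against 4.75 to 4.79. Smg8 stood at 6.69 in sham mouse 1, against 7.11 to 7.19.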

How the results depend on the processing

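Each member's difference was recomputed under 16 alternatives, 96 values in all. None passed the adjusted threshold, 75 kept their sign and 21 changed it. Single arrays left out, the difference ran from -0.29 to 0.41 for Cxcl1, -0.03 to 0.34 for Cxcl2, -0.03 to 0.29 for Cxcl3, -0.38 to 0.11 for Cxcl5, 0.06 to 1.31 for Ppbp and -0.34 to 0.28 for Pf4. With array weights Cxcl5 differed by 0.03. Without sham mice 2 and 3 together, a setting added after seeing the data, the differences were -0.49 for Cxcl1, -0.24 for Cxcl2, -0.31 for Cxcl3, 0.13 for Cxcl5, -0.14 for Ppbp and -0.48 for Pf4 (limma adjusted p from 0.81 to 0.978); the cause was not tested. The number of genes past the threshold over all genes was 0 under every alternative except without irradiated mouse 1, where it was 1. Over deviations from the group means the correlation of Cxcl2 and Cxcl3 was 0.90 and no longer passed (adjusted exact permutation p = 0.0938). That of Ppbp and Pf4 was 0.95 and passed (adjusted exact permutation p = 0.026). With the 2 arrays farthest from the median left out, the correlation of Ppbp and Pf4 was 0.80 and no longer passed, and that of Cxcl3 and Pf4 was 0.91 and passed. Mice of the same number did not deviate together (correlations of -0.28, -0.168, -0.177 and -0.144 over genes), so the numbers are not taken as pairs. Over all genes irradiated mice 1 and 4 deviated with sham mice 2 and 3 (0.099 to 0.272). Irradiated mice 2 and 3 deviated with sham mice 1 and 4 (0.151 to 0.236), and every other combination was negative. The split of mice described for Cxcl3 is thus also seen over all genes, and its cause was not tested. With the mouse number as a replicate block the differences were 0.01, 0.18, 0.13, -0.08, 0.70 and -0.04 for Cxcl1, Cxcl2, Cxcl3, Cxcl5, Ppbp and Pf4 (limma adjusted p from 0.966 to 0.999), 0 genes passed over all genes, and the block changed no call. With 4 arrays a group the printed intervals are wide, and they are not adjusted for the number of genes. A difference whose interval excludes 0 can still fail the adjusted threshold. Cxcl10 did so, at 0.66 (95% interval 0.08 to 1.24; limma adjusted p = 0.819).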
